A study of Mus musculus with 32 samples.

Results

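The data described here were the amygdala RNA-seq libraries of a mouse cross, read as 1 contrast: 8 libraries from males without *Kdm5c* against 8 libraries from males with it, which is 16 of the 32 libraries of the series. All mice were adult F1 males of the 129xB6 strain, bred from 129S1/SvImJ fathers and C57BL/6J mothers. The libraries without *Kdm5c* came from 4 *Kdm5c*-KO males, hemizygous for a deleted allele of this X-linked gene, and 4 double mutants (DM), which also carried 1 deleted *Kmt2a* allele. The libraries with *Kdm5c* came from 4 WT males and 4 *Kmt2a*-HET males, so that each side held as many *Kmt2a* heterozygotes as mice with both alleles, and *Kmt2a* status entered the fit as a covariate. Both alleles are constitutive and present in every cell, so a change in the adult amygdala cannot be told apart from one that arose during development. In such tissue libraries a lower share of a cell type and less RNA per cell cannot be told apart either.

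KDM5C is a histone demethylase that removes methyl groups from lysine 4 of histone H3 (H3K4), a mark of promoters, whereas KMT2A writes the mark. KDM5C is known for keeping germline genes silent in the soma, and its loss of function in humans causes an X-linked intellectual disability. The question was which amygdala genes move with the loss of KDM5C over both *Kmt2a* states.

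Each library held 19215503 to 26033615 gene counts and between 21764 and 23252 detected genes. Depth overlapped between the sides, with 19215503 to 25217180 counts without *Kdm5c* and 20014684 to 26033615 with it. The fit gave an adjusted *p* for 20732 genes. DM replicates 1 and 3 stood apart in choroid plexus markers, with summed normalised counts of 43871 and 8621 against 1127 to 1943 in the other 14 libraries, and none of the 9 markers passed the test (median log2 fold change 1.76). WT replicate 1 stood apart in another way, with the lowest oligodendrocyte sum (55628) and the highest microglia, blood and spermatocyte marker sums of its side (11503, 13990 and 2480). Of 14 marker lists, 0 differed between the sides by a two-sided exact permutation test within *Kmt2a* status at an adjusted *p* under 0.05. The lowest adjusted value was 0.257, for the amygdala markers (4954 on average without *Kdm5c*, 6144 with it) and the thalamus markers (1463 and 2535). Sums varied widely within the sides, so the test does not show that the tissue was alike. Striatum sums were 11944 to 64645 with *Kdm5c* and 8444 to 65718 without, and thalamus sums 475 to 4220 and 839 to 2613. Without the libraries numbered 1, a fit that called 494 genes, all 4 thalamus markers were called, beside 0 in the main fit.

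The targeted genes were examined first. *Kdm5c* (X, 152233020 to 152274535) had 1620 ± 329 normalised counts (SD, n = 4 here and below) in WT mice and 1565 ± 111 with *Kmt2a*-HET, against 1300 ± 89.7 for *Kdm5c*-KO and 1284 ± 54 for DM. Its log2 fold change without *Kdm5c* was -0.30 ± 0.08 (SE; DESeq2 adjusted *p* = 0.0307). Most of the transcript therefore remained in the counts of the deleted mice, and a gene count that sums all exons does not check a deletion of some of them. WT replicate 1 had 1227 *Kdm5c* counts, within the range of 1225 to 1434 seen without *Kdm5c*, while the other 7 libraries of its side had at least 1426. In 9 of the 11 risen germline genes named by rule it lay under every library without *Kdm5c*, at 7.91 counts for *Tex14*, 9.89 for *Zar1* and 0 for *D1Pas1*. The exceptions were *Ddx4* (113, above every library without *Kdm5c*) and *Mei1* (75.2, within their range of 38.8 to 98). Without DM replicates 1 and 3, a fit chosen after seeing the data, the *Kdm5c* call itself was lost (adjusted *p* = 0.15) at the same log2 fold change of -0.30. *Kmt2a* did not pass the test for *Kdm5c* loss (log2 fold change 0.03 ± 0.17, adjusted *p* = 1), which is not a test of *Kmt2a* status. Its gene counts were alike with 1 and with both alleles (4203 ± 1491 in WT and 4241 ± 474 in *Kmt2a*-HET), so they do not check the deletion of exons in that gene either.

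Many more genes were higher than lower without *Kdm5c*. Of the 20732 genes, 284 rose (1.37% of those tested) and 58 fell (0.28%) at a DESeq2 adjusted *p* under 0.1. The risen genes moved by a median of 0.86 on the log2 scale, with 120 over 1 and 65 under 0.5. The fallen genes moved less, by a median of -0.47, with 8 past 1 and 33 under 0.5. In 80 of the 284 risen genes (28.2%) every library without *Kdm5c* lay above every library with it, a separation that 0.267% of all genes with a *p* showed upwards. In 2 of the 58 fallen genes, *Folh1* and *Src*, every library lay below, against 0.00659% of all genes. The balance depended on single libraries and on the scaling. Without WT replicate 1, 417 genes rose and 194 fell, without *Kdm5c*-KO replicate 3, 336 and 141, and without WT replicate 4, 317 and 108, while without each of WT replicate 3, *Kmt2a*-HET replicates 2 and 4 and *Kdm5c*-KO replicates 2 and 4 the fallen genes numbered 33 to 37. With size factors from the ERCC spike-in RNA, 42 rose and 1 fell, and the median log2 fold change of all genes tested moved from -0.01 to -0.16. These size factors ran from 0.531 to 2.42, both ends in WT libraries, beside 0.842 to 1.15 for the default ones. All 284 risen genes stayed positive and all 58 fallen genes negative under that scaling.

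The smallest adjusted *p* was that of *Tex14*. *Tex14*, which encodes a protein of the intercellular bridges of germ cells, ran from 7.91 through a median of 11.1 to 26.9 normalised counts with *Kdm5c* and from 88.8 through 127 to 162 without. The log2 fold change was 3.27 ± 0.21, or 9.63-fold (adjusted *p* = 1.09e-49). The gene lies on chr11 (87405065 to 87555823, plus strand), and 1 annotated transcript, ENSMUST00000060835.11, carried 98.6% of the difference. *Zar1*, a maternal factor of the oocyte, went from 9.89 to 32.3 counts (median 16.2) to 68.3 to 124 (median 109), 2.47 ± 0.21 on the log2 scale (adjusted *p* = 1.38e-28). *Acrbp*, which encodes a protein of the sperm acrosome, went from 73.3 to 145 (median 106) to 198 to 288 (median 232), 1.18 ± 0.14 (adjusted *p* = 3.22e-14). In all of these genes the sides did not overlap.

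*Pnmt* (chr11, 98386450 to 98388181), which encodes the enzyme that makes adrenaline from noradrenaline, had the second smallest adjusted *p*. It had 3.23 to 11.1 counts (median 6.27) with *Kdm5c* and 31.9 to 109 (median 81.4) without, an 11.9-fold difference (log2 3.57 ± 0.29, adjusted *p* = 5.4e-32), again with no overlap. It was the 1 called gene among the 9 catecholamine genes with an adjusted *p* (11.1%, beside 1.37% risen among all genes tested). The remaining 8, which make, carry or break down dopamine and noradrenaline, did not pass.

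*Pgam2*, the muscle form of the glycolytic enzyme phosphoglycerate mutase, rose from 74.6 to 217 counts (median 98.3) to 331 to 528 (median 423), 1.88 ± 0.17 on the log2 scale (adjusted *p* = 1.22e-23). *Scarf2*, which encodes a membrane protein of the scavenger receptor family, rose from 121 to 222 (median 142) to 262 to 634 (median 519), 1.62 ± 0.16 (adjusted *p* = 7.06e-20). *Amn*, which encodes amnionless, part of the intestinal vitamin B12 receptor, rose from 85.1 to 155 (median 98.7) to 205 to 376 (median 319), 1.49 ± 0.15 (adjusted *p* = 1.17e-18). The highest *Pgam2* value with *Kdm5c*, 217, was that of WT replicate 1, and still lay under every library without *Kdm5c*.

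*Rps4l*, annotated as a transcribed pseudogene related to the ribosomal protein gene *Rps4x*, had the third smallest adjusted *p*. It ran from 301 to 739 counts with *Kdm5c* (median 402) and from 1334 to 1948 without (median 1537), 1.90 ± 0.15 on the log2 scale (adjusted *p* = 4.93e-31). Its level is uncertain because reads may be shared with the near-identical gene, and it lies within *Tmtc1* on the opposite strand. The noncoding *Gm10432* (1.35 ± 0.12), which lies antisense to *Ttc7b*, *BC065397* (1.67 ± 0.19) and the coding *BC024139* (1.45 ± 0.14), which overlaps the risen *Eppk1* on its own strand, rose with no overlap of the sides. Counting was on the gene's strand only if the authors set it so, which the sources used here do not state for these tables.

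*Zmynd8*, which encodes a reader of histone marks, was the most abundant of the 12 risen genes of smallest adjusted *p*. It ran from 1820 to 2253 counts with *Kdm5c* (median 2099) and from 2706 to 3250 without (median 2865), a log2 fold change of 0.49 ± 0.06 (adjusted *p* = 1.96e-15). The noncoding *2900052N01Rik*, from 2708 to 4391 (median 3550) to 4760 to 6261 (median 5150), was the risen gene among the 5 called genes of highest mean count (0.59 ± 0.09, adjusted *p* = 1.97e-07). These were small changes in abundant transcripts, and the sides did not overlap in either gene.

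**Figure D1:**
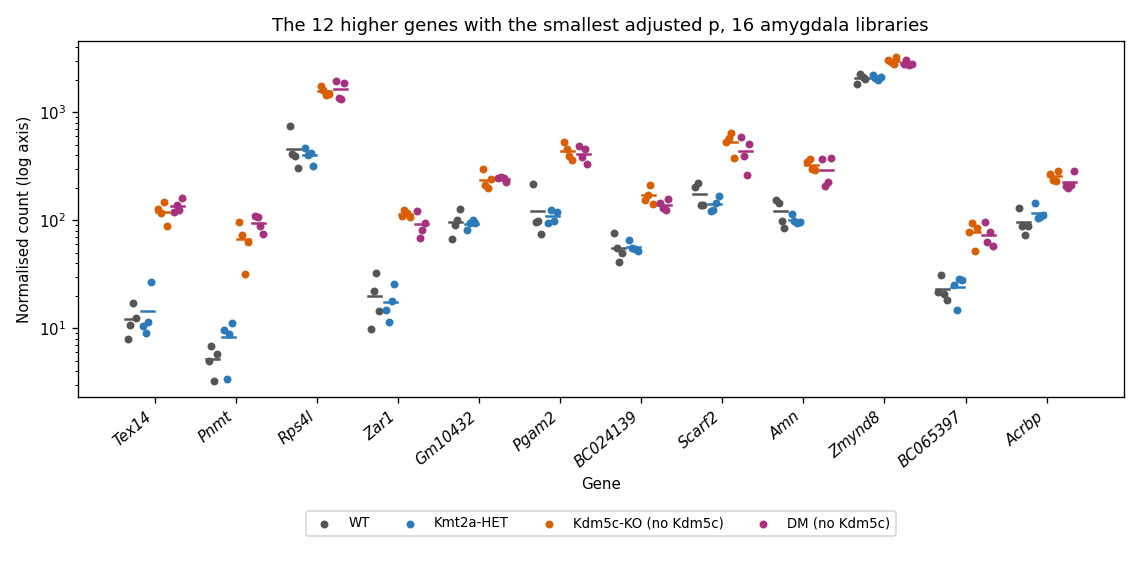
Normalised counts (log axis) of the 12 risen genes with the smallest adjusted *p*, 1 point per amygdala library and a bar at the mean of each genotype (n = 4). In each gene the *Kdm5c*-KO and DM points lie above all WT and *Kmt2a*-HET points, as in *Tex14* (88.8 to 162 against 7.91 to 26.9).

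Promoter letters were read for the 6 risen genes of smallest adjusted *p* that have an entry among RefSeq promoters of build GRCm38.p6, which span 250 bases before to 50 after the RefSeq gene start. They are shown because the genes moved together while their promoters differ in kind. Letters are in capitals where they match CACGTG, the E-box, or GCGGGAA, the E2F motif, searched on both strands, and no 2 matches overlap. The *Tex14* entry is chr11:87404815-87405114 on the plus strand, *Zar1* chr5:72581035-72581334 on the minus strand, *Pgam2* chr11:5803747-5804046 on the minus strand, *Scarf2* chr16:17797032-17797331 on the plus strand, *Amn* chr12:111270846-111271145 on the plus strand, and *Zmynd8*, the most upstream of 5 entries, chr2:165884789-165885088 on the minus strand, which lies inside the gene as GENCODE places it (165784152 to 165899016).
Tex14 promoter: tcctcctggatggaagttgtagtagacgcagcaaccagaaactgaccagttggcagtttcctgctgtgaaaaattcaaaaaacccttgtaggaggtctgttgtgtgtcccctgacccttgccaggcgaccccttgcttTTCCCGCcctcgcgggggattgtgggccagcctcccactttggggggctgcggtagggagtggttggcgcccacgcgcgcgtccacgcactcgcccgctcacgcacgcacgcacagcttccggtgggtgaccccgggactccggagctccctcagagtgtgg
Zar1 promoter: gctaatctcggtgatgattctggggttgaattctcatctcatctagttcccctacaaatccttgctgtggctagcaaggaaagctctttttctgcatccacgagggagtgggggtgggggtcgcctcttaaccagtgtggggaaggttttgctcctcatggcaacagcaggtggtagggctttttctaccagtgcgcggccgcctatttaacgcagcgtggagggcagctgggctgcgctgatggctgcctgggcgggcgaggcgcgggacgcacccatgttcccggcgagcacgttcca
Pgam2 promoter: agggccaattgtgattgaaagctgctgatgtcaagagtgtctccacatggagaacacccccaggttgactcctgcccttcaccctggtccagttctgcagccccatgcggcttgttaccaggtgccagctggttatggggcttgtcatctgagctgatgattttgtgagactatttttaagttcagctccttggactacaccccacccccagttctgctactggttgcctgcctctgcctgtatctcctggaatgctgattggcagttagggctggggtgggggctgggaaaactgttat
Scarf2 promoter: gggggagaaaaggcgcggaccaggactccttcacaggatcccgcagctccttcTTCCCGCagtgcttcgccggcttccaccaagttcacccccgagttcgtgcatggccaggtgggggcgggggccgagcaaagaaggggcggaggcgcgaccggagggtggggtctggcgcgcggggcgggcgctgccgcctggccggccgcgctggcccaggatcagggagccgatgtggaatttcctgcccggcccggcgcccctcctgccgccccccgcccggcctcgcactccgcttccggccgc
Amn promoter: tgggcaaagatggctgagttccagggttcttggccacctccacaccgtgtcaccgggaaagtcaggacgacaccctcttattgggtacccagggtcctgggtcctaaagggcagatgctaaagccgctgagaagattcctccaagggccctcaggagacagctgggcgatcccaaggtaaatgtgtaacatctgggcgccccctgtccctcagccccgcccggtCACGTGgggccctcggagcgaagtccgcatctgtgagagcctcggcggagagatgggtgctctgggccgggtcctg
Zmynd8 promoter: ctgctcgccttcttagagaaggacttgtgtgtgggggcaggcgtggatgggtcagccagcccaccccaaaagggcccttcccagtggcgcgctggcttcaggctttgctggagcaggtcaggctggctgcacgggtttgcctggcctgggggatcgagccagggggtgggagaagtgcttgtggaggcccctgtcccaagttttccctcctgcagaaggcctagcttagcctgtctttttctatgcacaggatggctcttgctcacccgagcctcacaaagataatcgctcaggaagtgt

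The promoters ranged from CpG-rich to CpG-poor. The ratio of observed to expected CpG was 0.69 in *Tex14*, 0.67 in *Zar1* and 0.82 in *Scarf2*, but 0.05 in *Pgam2*. The E2F letters stood in *Tex14* and *Scarf2* and the E-box letters in *Amn*. Among the 196 risen genes with an entry, 9.18% held the E-box letters and 9.18% the E2F letters, beside 9.45% and 7.62% of the 13666 tested genes with an entry and 7.24% and 4.67% of all 27025 promoters. The median CpG ratio was 0.43 for the risen genes and 0.71 for the tested genes. A match is a description of letters and not of a bound site.

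Germline genes were taken in 3 lists, for which the counts are descriptions. Of the meiosis genes, 3 of 19 with an adjusted *p* rose and 0 fell, of the piRNA and germ granule genes 4 of 19 rose and 0 fell, and of the testis and oocyte genes 6 of 9 rose and 0 fell. These are 15.8%, 21.1% and 66.7%, beside 1.37% risen among all genes tested. The medians over these members were 0.36, -0.04 and 2.47 on the log2 scale, beside -0.01 for all genes tested. Most of the meiosis and piRNA genes therefore did not pass the test. The lists held 27, 23 and 22 genes, and those with too few counts had no adjusted *p*. A gene near silence with *Kdm5c* gets one only through its counts in the libraries without. The shares and medians of these lists therefore lean towards rises, most of all for the testis and oocyte genes, with 9 of 22 tested. A further 6 of the 22 testis and oocyte genes, among them *Prm2* and *Tnp1*, which package sperm chromatin, had 0 counts in all 16 libraries.

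Among the testis and oocyte genes, some went from near silence to low expression. *D1Pas1*, a testis RNA helicase gene, had 0 counts in 7 of the 8 libraries with *Kdm5c* and 0.956 in the remaining one, and between 16.9 and 69.5 (median 19.4) without. The ratio of counts was 240, with a 95% exact counting interval of 42.6 to 9509 (log2 fold change of the fit 6.96 ± 0.82, adjusted *p* = 4.74e-14). *Cyct*, the testis form of cytochrome c, had 0 to 2.66 counts with *Kdm5c* and 6.86 to 20.2 (median 12.8) without (3.98 ± 0.65, adjusted *p* = 5.27e-07). Neither gene overlapped between the sides. *Naa11*, a testis acetyltransferase gene (4.25 ± 0.98, adjusted *p* = 0.00194), and *Stk31*, a germ cell kinase gene (2.11 ± 0.52, adjusted *p* = 0.0059), also rose, but their sides overlapped. Both were named after their values were seen, as the last of the 6.

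Of the meiosis genes, *Sycp3*, a component of the synaptonemal complex, rose from 5.39 to 19.4 counts (median 13.4) to 22.2 to 62.5 (median 34.6), 1.5 ± 0.29 on the log2 scale (adjusted *p* = 5.76e-05). *Msh4*, whose product acts in meiotic crossover, had 0 to 0.956 counts with *Kdm5c* and 1.06 to 7.72 (median 5.18) without, a ratio of 12.9 with an exact counting interval of 4.09 to 65.4 (adjusted *p* = 0.00788). *Mei1*, needed for meiotic double-strand breaks, rose by 0.66 ± 0.20 (adjusted *p* = 0.0778), with overlapping sides, and its call was lost with edgeR (log2 0.66, adjusted *p* = 0.176), without DM replicates 1 and 3 (0.64, adjusted *p* = 0.166) and in 12 of the 16 fits without 1 library. The 16 that did not pass included *Sycp1* (log2 fold change -0.57, adjusted *p* = 0.961) and *Prdm9* (0.02, adjusted *p* = 1).

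Of the piRNA and germ granule genes, *Fkbp6* had 0 to 1.85 counts (median 0) with *Kdm5c* and 3.64 to 37.7 (median 13.7) without (4.76 ± 0.83, adjusted *p* = 2.88e-06). *Rnf17*, which encodes a Tudor domain protein of germ cells, rose from 5.83 to 15.3 (median 11) to 18.6 to 46.5 (median 27.5), 1.51 ± 0.28 (adjusted *p* = 2.22e-05). *Pld6*, a mitochondrial factor of piRNA production, rose by 0.65 ± 0.16 (adjusted *p* = 0.00601) and overlapped between the sides, and its call was lost without the libraries numbered 1 (log2 0.51, adjusted *p* = 0.174). *Ddx4*, the germ cell helicase Vasa, rose by 0.95 ± 0.27 (adjusted *p* = 0.0319), from a median of 31.5 to 72.5. The *Ddx4* call was lost with edgeR (log2 0.94, adjusted *p* = 0.152) and without DM replicates 1 and 3 (0.78, adjusted *p* = 0.311). It was also lost without *Kmt2a*-HET replicate 3, *Kmt2a*-HET replicate 4 or DM replicate 1 (adjusted *p* of 0.12, 0.108 and 0.103). WT replicate 1 had 113 *Ddx4* counts, above all 8 libraries without *Kdm5c* (59.2 to 86.6). No *Piwil* gene passed.

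Short windows around the motif letters show where they stand in the promoters of the risen germline genes. Of the 12 such genes with an entry, 5 held the E-box letters (41.7%) and 4 the E2F letters (33.3%), beside 25.9% and 25.9% of the 27 germline list genes with an entry that were tested and not called. Both exceed the 9.45% and 7.62% of the tested genes with an entry, and the 7.24% and 4.67% of all promoters. Germline genes that were not called hold the letters too. The coordinates are those of GRCm38.p6 and the letters are given on the gene's strand, with the match in capitals.
Ddx4 E-box at chr13:112652323-112652350: gcgtccgcccgCACGTGcagccgtttaa
Ddx4 E2F at chr13:112652429-112652457: ccgtccatgggGCGGGAAgtcgcgcgccg
Fkbp6 E-box at chr5:135350129-135350156: gcgcctgccatCACGTGtgcagcgcgtg
Fkbp6 E-box at chr5:135350065-135350092: cgtctatcgatCACGTGccgtttctctc
Naa11 E2F at chr5:97392345-97392373: gcccgtaggccTTCCCGCcaccggtctct
Pld6 E-box at chr11:59787674-59787701: gggcgggctggCACGTGttgggcgcgca
Stk31 E-box at chr6:49395473-49395500: ggccggccaccCACGTGaccagggctgc
Sycp3 E-box at chr10:88459512-88459539: ccgttggctccCACGTGagaacgggcat
Sycp3 E-box at chr10:88459533-88459560: cgggcatggagCACGTGctaggaggcgg
Sycp3 E2F at chr10:88459429-88459457: aggaaggaacaGCGGGAAagtgctgcttc
Tex14 E2F at chr11:87404942-87404970: accccttgcttTTCCCGCcctcgcggggg

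*Dnah1*, a heavy chain of the inner dynein arm of motile cilia and sperm tails, was the 1 called gene of the 15 axonemal dynein heavy chains (6.67%, beside 1.37% risen among all genes tested). It ran from 318 to 711 counts with *Kdm5c* (median 509) and from 961 to 1520 without (median 1049), 1.15 ± 0.14 on the log2 scale (adjusted *p* = 1.41e-13), with no overlap. The median over the 15 was 0.31. Of the 16 motile cilia genes, *Dnaic1*, a dynein intermediate chain (0.65 ± 0.17, adjusted *p* = 0.0139), and *Cfap43*, a protein of the cilium shaft (0.74 ± 0.21, adjusted *p* = 0.026), rose (12.5%, beside the same 1.37%). All 16 had a positive estimate, with a median of 0.44. The highest *Cfap43* value, 142, was that of DM replicate 1, the library with the most choroid plexus marker RNA, and the next without *Kdm5c* was 82.6. The part of choroid plexus RNA in the cilia genes was not tested. Without DM replicate 1 the *Cfap43* call was lost (log2 0.61, adjusted *p* = 0.111), as it was with edgeR (adjusted *p* = 0.103) and without the libraries numbered 1 (log2 0.53, adjusted *p* = 0.309). Without DM replicates 1 and 3, *Dnah1* remained called, but 0 of the 16 motile cilia genes did (*Dnaic1* log2 0.55, adjusted *p* = 0.213, and *Cfap43* 0.61, 0.236). In that fit 237 genes rose and 46 fell, and 8 of the 37 named genes that were called lost the call.

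**Figure D2:**
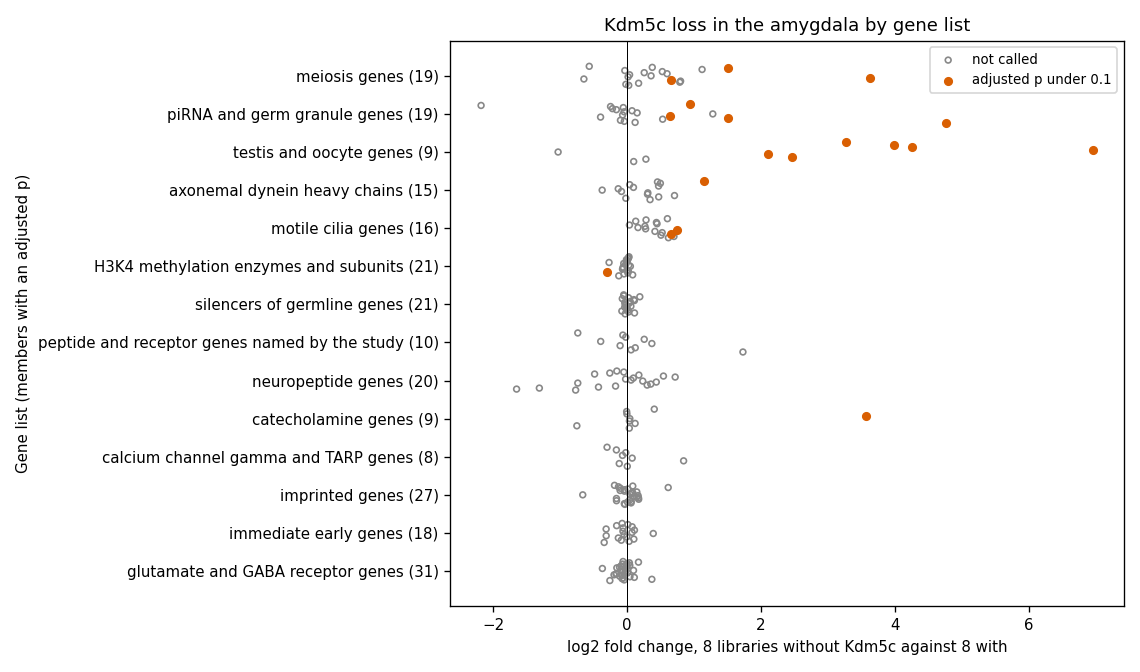
Log2 fold changes without against with *Kdm5c* in the amygdala for the members of 14 gene lists that had an adjusted *p* (number in brackets), filled where the adjusted *p* was under 0.1. The called members lie in the germline, dynein, cilia and catecholamine lists and to the right of 0, except *Kdm5c* at -0.30.

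Among the enzymes that write and erase H3K4 methylation, *Kdm5c* itself was the 1 called gene. Of 21 such genes, 20 did not pass, among them the paralogues *Kdm5a* (log2 fold change -0.00156), *Kdm5b* (0.02) and the Y-linked *Kdm5d* (0.01), and the median over the list was -0.01. *Setd1b*, an H3K4 methyltransferase (log2 -0.27, adjusted *p* = 0.315), was called in DM against *Kmt2a*-HET alone (-0.40, adjusted *p* = 0.00748) and in the hippocampus (-0.35, adjusted *p* = 0.00559). Of 21 genes of the complexes that silence germline genes, 0 passed, with a median of -0.000858. With 1.37% of all genes tested risen and 0.28% fallen, lists of this size would hold few calls or none at the background share. The most abundant of them, *Ehmt2*, an H3K9 methyltransferase, had log2 -0.01 ± 0.07 and *Cbx3*, a heterochromatin protein, 0.03 ± 0.06. *Pcgf6*, *E2f6*, *Mga* and *Max*, of the PRC1.6 complex, had -0.05, -0.07, 0.19 and 0.02, and *E2f6* was called in DM against *Kmt2a*-HET alone (-0.29, adjusted *p* = 0.0747).

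The neuronal signalling and imprinted gene lists held no called gene for *Kdm5c* loss over both *Kmt2a* states. None passed of 20 neuropeptide genes, 31 glutamate and GABA receptor genes, 18 immediate early genes, 27 imprinted genes, 8 calcium channel gamma and TARP genes and 10 peptide and receptor genes that the study singled out. At the background shares of 1.37% and 0.28%, 0 calls in lists of 8 to 31 genes is no result about them. The list medians lay between -0.06 and 0.04. The most abundant members were *Penk* (log2 0.18 ± 0.28) and *Sst* (-0.05 ± 0.18) of the neuropeptides, *Gabbr1* (-0.04 ± 0.07) and *Grin1* (-0.07 ± 0.06) of the receptors, and *Egr1* (-0.06 ± 0.26) and *Homer1* (0.03 ± 0.16) of the early genes. *Meg3* (0.11 ± 0.11) and *Gnas* (-0.16 ± 0.10) of the imprinted genes, *Cacng7* (-0.12 ± 0.08) and *Cacng4* (-0.07 ± 0.10), and *Agt* (-0.02 ± 0.14) and *Adcy2* (-0.06 ± 0.06) did not pass. In DM against *Kmt2a*-HET alone, where 3.27% of all genes tested were called, 6 of the 20 neuropeptide genes were, among them *Pomc*, the precursor of melanocortin peptides (log2 -1.74 ± 0.17, adjusted *p* = 5.76e-20), and 2 of the 10 genes singled out by the study, *Pomc* again and *Agt* (-0.295, adjusted *p* = 0.00031). Pituitary marker sums, which include *Pomc*, were 349 to 447 in *Kmt2a*-HET and 115 to 226 in DM, and hypothalamus sums were 4688 to 6090 and, in DM, 2056 to 2127 except for 8020 in replicate 4. Their part in the neuropeptide values was not tested. In *Kdm5c*-KO against WT, *Pomc* had 0.26 and *Agt* 0.25 (both adjusted *p* = 1), and 0 genes of these 6 lists were called, beside 0.46% of all genes tested. The libraries with and without *Kdm5c* overlapped in every gene of these lists, and a difference too small for the spread between mice could not be detected.

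Among the 58 fallen genes, *Lum* had the smallest adjusted *p*. *Lum*, which encodes lumican, a collagen-binding proteoglycan, went from 12.9 to 52.4 counts (median 35.6) with *Kdm5c* to 2.98 to 16.4 (median 9.27) without, a log2 fold change of -1.88 ± 0.33 (adjusted *p* = 5.01e-06). *H2-Aa* and *H2-Eb1*, which encode chains of the MHC class II molecule that presents antigen, changed by -1.19 ± 0.26 (adjusted *p* = 0.000604) and -0.94 ± 0.23 (adjusted *p* = 0.00631). All of these overlapped between the sides. The summed counts of the 7 oligodendrocyte markers, with a median log2 fold change of 0.05, were 55628 to 158015 with *Kdm5c* and 74524 to 140685 without (exact permutation adjusted *p* = 0.564).

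*Folh1*, which encodes glutamate carboxypeptidase, was the fallen gene with full separation among the 8 of smallest adjusted *p*, from 255 to 346 counts (median 291) to 144 to 246 (median 194), -0.55 ± 0.12 (adjusted *p* = 0.000907). *Src*, a tyrosine kinase gene named for its separation after its values were seen, changed by -0.19 ± 0.06 (adjusted *p* = 0.0792). *Plxdc1* (-0.54 ± 0.11), *Klhl14* (-0.75 ± 0.15) and *Adamts15* (-0.56 ± 0.12), a protease of the extracellular matrix, fell with adjusted *p* of 8.63e-05, 9.25e-05 and 0.000432, and their sides overlapped. *Sez6l2*, *Klc2* and *Rph3a*, neuronal genes among the 5 called genes of highest mean count, fell by 0.17, 0.16 and 0.15 on the log2 scale, with adjusted *p* of 0.0362, 0.0466 and 0.0995. These last were lost in edgeR's quasi-likelihood test (adjusted *p* of 0.219, 0.261 and 0.32), which called 20 fallen genes in all, and in 7, 7 and 11 of the 16 fits without 1 library.

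**Figure D3:**
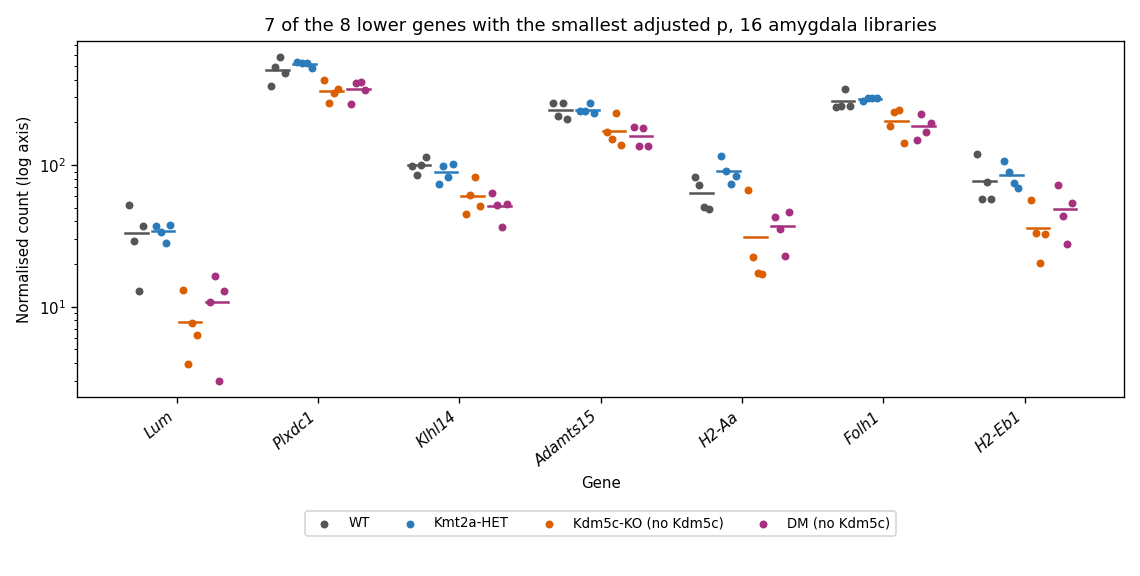
Normalised counts (log axis) of 7 of the 8 fallen genes with the smallest adjusted *p*, 1 point per amygdala library and a bar at the mean of each genotype (n = 4). The sides overlap in each plotted gene except *Folh1* (144 to 246 without *Kdm5c*, 255 to 346 with it).

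The contrast joins separate comparisons that share no library, *Kdm5c*-KO against WT and DM against *Kmt2a*-HET, so that genes called in one can be looked up in the other. *Kdm5c*-KO against WT alone called 86 higher (0.439% of those tested) and 4 lower genes (0.0204%). Of the 86, 75 (87.2%) were higher in DM than in *Kmt2a*-HET at an unadjusted *p* under 0.05, beside 4.03% of all genes with a *p* there, and 85 had the same sign. Their median log2 fold change was 1.33 where they were called and 0.92 in the other mice. Of the 3 lower genes with a *p* there, 1 was followed, beside 3.01% of all genes.

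In the other direction, DM against *Kmt2a*-HET called 384 higher (2.07%) and 222 lower genes (1.2%). Of the higher, 129 (33.6%) were followed in *Kdm5c*-KO against WT, beside 1.8% of all genes, with medians of 0.63 and 0.19. Of the lower, 14 (6.31%) were followed, beside 0.795%, with medians of -0.41 and -0.07. The followed shares were larger for the rises than for the falls, a difference that was not tested. The DM group includes the libraries high in choroid plexus RNA, and 6 of the 9 choroid plexus markers were among the genes called there, beside 3.27% of all genes tested. *Tex14* moved by 3.32 in *Kdm5c*-KO against WT and 3.22 in DM against *Kmt2a*-HET, *Pnmt* by 3.66 and 3.50, *Rps4l* by 1.77 and 2.02, and *Zmynd8* by 0.55 and 0.43.

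**Figure D4:**
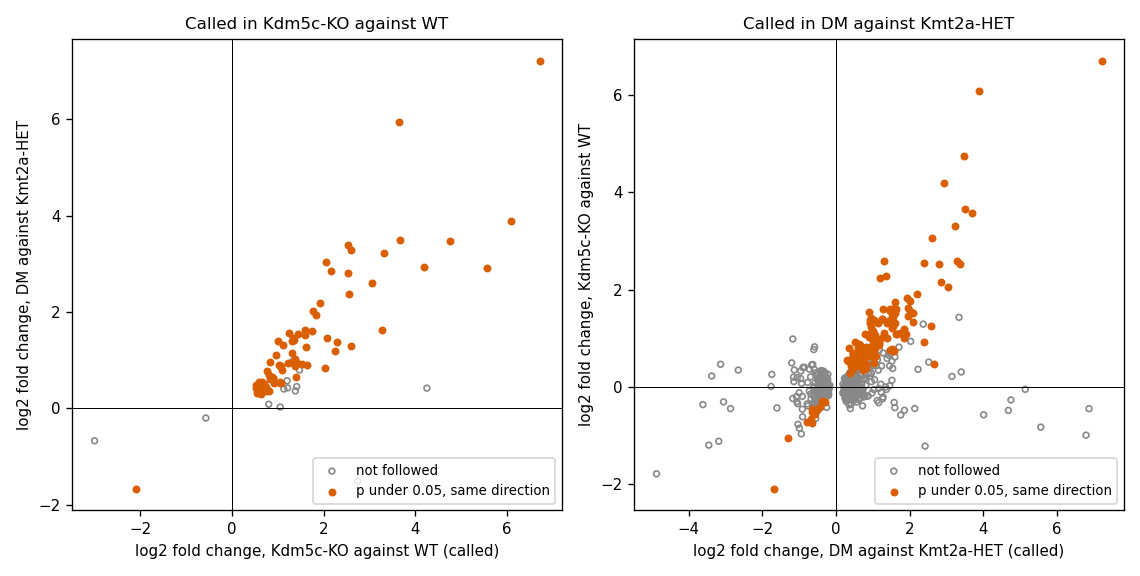
Genes called in *Kdm5c*-KO against WT (left) and in DM against *Kmt2a*-HET (right), with the log2 fold change there on the x axis and that of the comparison with no shared library on the y axis. Filled points (75 of 86 higher genes on the left, 129 of 384 on the right, besides the lower ones) had an unadjusted *p* under 0.05 in the same direction.

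A difference of the *Kdm5c* effect between the *Kmt2a* states was called for 1 gene, *Hmx2* (0.00329% of 30355 genes with an adjusted *p*), a homeobox gene of the hypothalamus. Its counts were 4.01 ± 3.86 in WT and 26.7 ± 12.4 in *Kdm5c*-KO, but 24 ± 2.05 for *Kmt2a*-HET and 8.43 ± 5.78 for DM (interaction log2 -4.25, 95% interval -5.98 to -2.52, adjusted *p* = 0.0429). The count depended on the model, with 85 genes under the replicate block, 26 with a term for replicate 1 and 0 with edgeR. Summed hypothalamus markers ran from 1596 to 8020 over the 16 libraries, and their part in this gene was not tested. Among the 342 called genes 22 had an unadjusted interaction *p* under 0.05 (6.43%), beside 2.82% of all genes. For the leading genes the intervals of the difference remained wide: -0.96 to 0.75 for *Tex14*, -1.31 to 0.996 for *Pnmt*, -0.36 to 0.86 for *Rps4l*, and -0.33 to 0.10 for *Zmynd8*. Changes of the effect within those limits could not be told from none.

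The hippocampus of the same mice gave 16 further libraries, which are other tissue but not other animals. There, 425 genes rose (2.14% of those tested) and 113 fell (0.569%). The rises included 7 of the 9 choroid plexus markers, such as the prolactin receptor gene *Prlr* (log2 2.60, adjusted *p* = 0.0168) and the klotho gene *Kl* (1.77, adjusted *p* = 0.0121), and 5 of the 16 motile cilia genes, and the part of that tissue in the hippocampal rises and in their overlap with the amygdala was not tested. Of the 276 genes risen in the amygdala with an adjusted *p* in the hippocampus, 137 (49.6%) were called higher there and 0 lower, which is 32.2% of the hippocampal rises. Of the 56 fallen genes, 8 (14.3%) were called lower, which is 7.08% of the hippocampal falls. *Tex14* (log2 3.57 ± 0.23 in the hippocampus), *Rps4l* (2.25 ± 0.13), *Dnah1* (2.21 ± 0.09) and *D1Pas1* (5.78 ± 0.80) rose there too. *Lum* fell there by 0.77 on the log2 scale (adjusted *p* = 0.0873).

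Other leading genes had the following hippocampal values, in a table scaled separately. *Zar1* had 1.51 ± 1.93 counts with *Kdm5c* and 7.48 ± 5.38 without (SD, n = 8), and rose there too (log2 2.27 ± 0.73, adjusted *p* = 0.0816). *Pnmt* had 3.02 ± 2.49 and 10.6 ± 5.66 (log2 1.82, adjusted *p* = 0.0603). *Acrbp* had 116 ± 28.9 and 117 ± 36.7, a log2 fold change of 0.01 (adjusted *p* = 0.999), where the amygdala gave 1.18. *H2-Aa* and *H2-Eb1* did not pass in the hippocampus (log2 -0.44 and -0.21). Of the 10 peptide and receptor genes that the study singled out, which it chose on these samples so that they are not independent evidence, *Mc3r*, a melanocortin receptor gene (log2 3.30 ± 1.05, adjusted *p* = 0.0727), *Gabre*, a GABA-A receptor subunit gene (2.20 ± 0.73, adjusted *p* = 0.099), and *Lhb*, a pituitary hormone gene (2.04 ± 0.68, adjusted *p* = 0.0996), rose in the hippocampus, beside 2.14% of all genes tested. Their counts without *Kdm5c* there were 6.55 ± 10.5, 14 ± 17.7 and 8.55 ± 10.1 (SD, n = 8), so that the spread between libraries was larger than the mean in each. The difference between the regions was not tested.

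**Figure D5:**
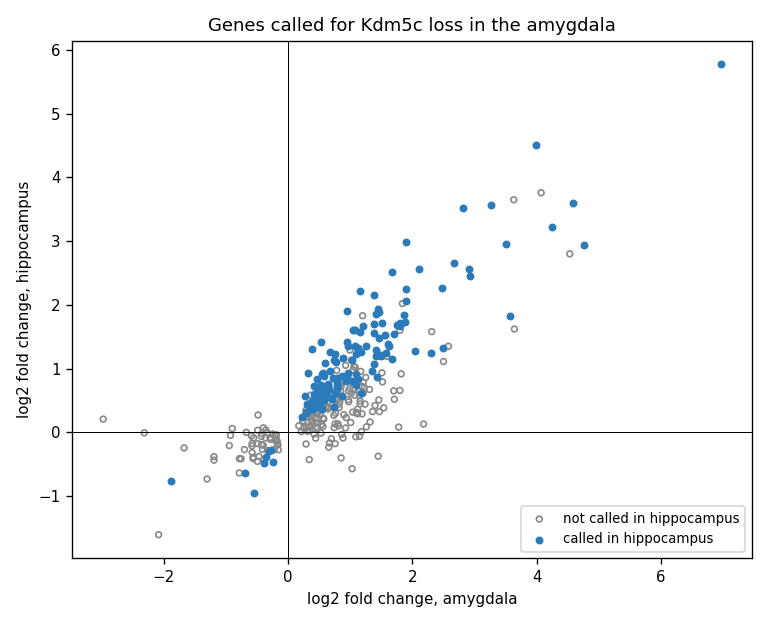
Log2 fold change without against with *Kdm5c* in the amygdala (x axis) and in the hippocampus of the same mice (y axis), for the genes called in the amygdala, filled where also called in the hippocampus. Of the 284 risen genes 268 have a positive value in the hippocampus, and 52 of the 58 fallen genes a negative one.

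The called genes lay across the genome. Over the autosomes and X, the share of tested genes that rose ran from 0.349% on chromosome 16 to 2.33% on chromosome 19, and 0 of the 10 tested Y genes and 15 mitochondrial genes did, and on the X chromosome 9 of 652 rose and 4 fell. Within 5 Mb of *Kdm5c*, 45 other genes were tested and 1, *Apex2*, was called (log2 -0.40, adjusted *p* = 0.0976), beside 1.37% risen and 0.28% fallen of all genes tested. Of the 284 risen genes 231 were protein coding, which is 1.43% of the protein-coding genes tested, beside 1.37% risen among all genes tested. Of the 58 fallen genes 56 were, which is 0.346%, beside 0.28%. There were 31 pairs of called genes within 50 kb of each other, 28 of them moving in the same direction and 12 overlapping each other, among them *Col9a3* with *Tcfl5* (log2 1.20 and 1.89) on opposite strands and *BC024139* with *Eppk1* (1.45 and 1.08) on the same strand, for which reads may not be told apart. *Xlr5a* (4.59) and *Xlr3a* (0.93), members of an X-linked multigene family 10540 bases apart, both rose, with counts that near-identical copies may share. These pairs were named after their values were seen. With 83% of the called genes higher, most pairs of called genes would share a direction by number alone. Whether 31 pairs within 50 kb are more than that number of called genes would give was not tested.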

How the data were processed

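Total RNA of mouse amygdala was sequenced after ERCC spike-in RNA had been added, with directional oligo-dT libraries. Per the labels and the study's methods, the authors mapped reads to mm10 with STAR 2.5.3a and counted them with featureCounts of Subread 1.5.0. The deposited gene and transcript tables hold expected counts, not normalised by the authors, and some are not whole, so the estimator and the annotation release are not given in the sources used here. All columns of values were used. Values were rounded, and symbols and coordinates came from GENCODE M21 (53620 of 53715 genes, with 92 ERCC rows left out of the tests).

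DESeq2 1.42.0 in R 4.3.3 (Wald test, default size factors and filters, unshrunken fold changes) was fitted to all 16 amygdala libraries with terms for *Kdm5c* and *Kmt2a* status, with calls at an adjusted *p* (Benjamini-Hochberg) under 0.1. Normalised counts are counts divided by size factors. The same fit was made in the hippocampus, and separate fits in each *Kmt2a* state. Marker sums were compared by a two-sided exact permutation test over the 4900 divisions within *Kmt2a* status. Alternatives were edgeR 4.0.16, other scalings, a filter of 10 counts in 4 libraries, added terms and left-out libraries. Code was tested on simulated data. Where a side held 1 to 3 counts in all, a 95% exact interval was used, and 3 counts served as the floor for 0. Intervals and floors cover counting error only. In 19215503 to 26033615 counts per library the floor is 0.115 to 0.156 CPM.

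The named genes were *Kdm5c* and *Kmt2a*, the 12 risen and 8 fallen genes of smallest adjusted *p*, the 5 called genes of highest mean count, and up to 4 called members of each list, or the 2 most abundant where none was called. Other genes were named after their values were seen. Some genes that the rule names are not reported here. Members, lists and tests were chosen with earlier results of these data known. Replicates are separate mice, and replicate pairs differed by a chi-square of 3.89 to 135 per gene, so that none was a library deposited again.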

Additional observations from a re-analysis of the deposited data

Results flagged for a closer look

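Among the named genes, 13 values stood apart from the other 7 of their side by Dixon's test for 8 values, which chance alone does in about 1 of 20 groups. Both sides of the named genes were looked at, so that several such values would be expected from chance alone. WT replicate 1 gave most of them. It was high for *Rps4l* (739 normalised counts, next 466), *Pgam2* (217, next 124), *Mei1* (75.2, next 48.5), *Ddx4* (113, next 37.9), *Ehmt2* (9779), *Cbx3* (2922) and *Grin1* (16772), and low for *Gabbr1* (19380). WT replicate 4 was low for *Cacng7* (3420) and *Gnas* (25732) and held the 1 count of *D1Pas1* on its side (0.956 after scaling), where any single count would stand apart. WT replicate 3 was high for *Folh1* (346) and DM replicate 1 for *Cfap43* (142).

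Of the marker sums, WT replicate 1 was high for microglia (11503), blood (13990) and spermatocyte markers (2480), DM replicate 1 for choroid plexus markers (43871), DM replicate 3 for astrocyte markers (137760) and *Kdm5c*-KO replicate 3 for pituitary markers (1135), and *Kdm5c*-KO replicate 1 was low for neuron markers (63890). The part of these in the called genes was not tested beyond the fits that leave the libraries out.

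*Hmx2* was the 1 gene whose *Kdm5c* effect differed with *Kmt2a* status by the interaction test (log2 -4.25, SE 0.88, DESeq2 adjusted *p* = 0.0429), with 0 to 8.74 counts in WT.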

How the results depend on the processing

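The calls for *Kdm5c* loss (342 genes, 284 higher and 58 lower) became 43 (42 and 1) with ERCC size factors, 220 with edgeR and 521 with a term for oligodendrocyte markers, the last chosen after seeing the data. All 43 and all 220 were among the 342. The fallen genes, 20 with edgeR, 32 with edgeR and the replicate block, 90 with a term for replicate 1, 165 without the libraries numbered 1, 122 with the oligodendrocyte term and 137 with a term for meningeal markers (also added later), moved most. Leaving out 1 library gave 268 to 611 calls, 235 to 417 higher and 33 to 194 lower, with the most without WT replicate 1 (611), and 477 without *Kdm5c*-KO replicate 3. With the replicate number as a block, 414 genes were called, 92 of them lower. The numbers name mice of different genotypes. The 6 pairs numbered 1 deviated together (correlations of 0.3 to 0.637), while those numbered 2 to 4 ran from -0.5 to 0.362. Since not every pair was over 0.1 (14 of 24 were), the numbers were not taken as pairs.

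The interaction gave 1 gene, but 0 with ERCC size factors and 0 with edgeR (665 at an unadjusted *p* under 0.05, and 857 in DESeq2), 85 with the replicate block, 26 with a term for replicate 1, and 0 to 68 without single libraries, the most without WT replicate 2. Genes called in *Kdm5c*-KO against WT and followed numbered 76, or 5 with ERCC size factors, 16 with edgeR, and 47 to 91 without single libraries. Those called in DM against *Kmt2a*-HET numbered 143, or 20 with ERCC size factors, and 103 to 177. Genes called in both regions numbered 145, or 10 with ERCC size factors and 88 with edgeR, and 119 to 165 without single mice. The cause of these shifts was not tested. Pituitary marker sums changed direction on the log2 scale, from a ratio of 1.04 to 0.929. Of the 37 named genes that were called, 22 lost the call with ERCC size factors, 6 of the 35 with an adjusted *p* there with edgeR, and 6 in at least 1 fit without a library, and 0 changed direction. The depth limits what can be said of genes with a few counts on each side.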

Other observations

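The following lists were put together after the values had been seen, so that their counts describe these libraries and carry no test as lists. Of 45 skeletal muscle genes with an adjusted *p*, 9 rose and 0 fell (DESeq2 adjusted *p* under 0.1), which is 20%, beside 1.37% risen among all genes tested. *Acta1*, the skeletal muscle actin, went from 73.4 to 220 normalised counts (median 107) with *Kdm5c* to 269 to 410 (median 368) without, a log2 fold change of 1.41 ± 0.22 (adjusted *p* = 6.76e-08), and the sides did not overlap. *Sln*, an inhibitor of the muscle calcium pump (1.71 ± 0.37), *Jsrp1*, a protein of the calcium release apparatus (1.41 ± 0.22), *Nrap* (1.15 ± 0.20) and the calcium release channel gene *Ryr1* (0.77 ± 0.14) rose with overlapping sides. The median over the 45 was 0.09, and the fast myosin gene *Myh4* (log2 0.09, adjusted *p* = 1) and the creatine kinase gene *Ckm* (-0.11, adjusted *p* = 1) did not pass.

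Of 44 collagen genes, 6 rose (13.6%, beside the same 1.37%) and 0 fell, with a median of 0.05. The cartilage collagen gene *Col9a3* rose from 266 to 391 counts (median 315) to 465 to 1484 (median 694), 1.20 ± 0.16 (adjusted *p* = 1.57e-10), while the fibrillar *Col1a1* (log2 -0.18, adjusted *p* = 0.961) and *Col3a1* (-0.40, adjusted *p* = 0.844) did not pass. Of 5 class II antigen presentation genes, *H2-Aa*, *H2-Eb1* and *H2-Ab1* fell (*H2-Ab1* by 0.92 on the log2 scale, adjusted *p* = 0.0434), while the invariant chain gene *Cd74* (-0.63, adjusted *p* = 0.225) and the regulator gene *Ciita* (-0.31, adjusted *p* = 1) did not pass. Of all genes tested 0.28% fell. The summed class II counts were 312 to 746 with *Kdm5c* and 172 to 430 without. Microglia markers summed to 6736 to 11503 and 7004 to 8704, and of 10 meningeal fibroblast markers *Lum* was the 1 called. The part of these cell types in the falls was not tested.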
